A study of Mus musculus with 28 samples.

Results

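Acetylation of histone H3 was followed at 5 genes that are active mainly in the embryo and come back in many tumours: Igf2bp1, Igf2bp2 and Igf2bp3, Hmga2 and Lin28b. They are 5 of 21896 protein-coding mouse genes. Overlapping peaks of the 12 peak lists of each mark were merged into regions, and a region belonged to a gene where it overlapped the gene body with a margin of 1 kb. This gave 21 of 32703 regions of H3K27ac, the acetylated lysine 27 of histone H3, and 8 of 20543 regions of H3K9ac, the acetylated lysine 9. The genes were chosen by measured values of these libraries, above all the H3K9ac difference at Igf2bp1 between resistant and sensitive cells. Every comparison of the 5 genes that includes the sensitive cells or the unmodified resistant cells is therefore given as a description, with no test. Only the comparison of the hairpin cells with their controls, which uses neither of those groups, was tested. The values of all 4 groups were known when the genes were chosen, so these p-values are not fully independent of the choice.

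The cells were mouse lung adenocarcinoma cells grown in RPMI-1640 medium with serum. Group Sen was labelled PD-1-sensitive and wild-type. Group Res was PD-1-resistant and wild-type, from cells treated with PD-1 inhibitors, which block an immune checkpoint receptor. Group Res_Ctrl was the resistant line with the genotype given as control, and Res_shFabp7 was the resistant line with a short hairpin knockdown of Fabp7, a fatty acid binding protein. All 4 groups were fixed with formaldehyde and each had 3 biological replicates per mark. Each group is 1 line, so a p-value measures the spread between cultures of a line and not between independent lines or clones.

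The IGF2BP proteins bind messenger RNAs, many of them carrying the methylated adenosine m6A, and shield them from decay. LIN28B binds the precursors of the let-7 microRNAs and blocks their maturation, while HMGA2, a chromatin protein with AT-hook domains, is made from one of the best known let-7 target messengers. Messengers of the IGF2BP family are let-7 targets too, which links the 5 genes, and most of them are silent in adult tissue. H3K27ac marks active promoters and enhancers, and H3K9ac is found mostly at active promoters.

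The promoters show how unlike the genes are in sequence. RefSeq (build GRCm38.p6, the same as mm10) gave the promoter of 4 of the 5 genes, from 250 bases before to 50 bases after the annotated start. They are shown because the genes differ in where and in which groups their starts were acetylated. All 4 lie on the minus strand and are printed 5′ to 3′, with CG dinucleotides in capitals. The intervals are chr16:22163250-22163549 for Igf2bp2, chr10:120476420-120476719 for Hmga2, chr6:49214905-49215204 for Igf2bp3 and chr10:45470152-45470451 for Lin28b.
Igf2bp2: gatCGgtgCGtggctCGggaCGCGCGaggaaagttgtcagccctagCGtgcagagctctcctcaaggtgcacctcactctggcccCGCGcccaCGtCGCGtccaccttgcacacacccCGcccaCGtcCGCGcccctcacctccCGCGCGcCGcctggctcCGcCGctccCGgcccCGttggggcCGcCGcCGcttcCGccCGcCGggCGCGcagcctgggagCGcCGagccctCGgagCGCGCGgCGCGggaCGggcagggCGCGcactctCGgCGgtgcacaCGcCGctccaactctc
Hmga2: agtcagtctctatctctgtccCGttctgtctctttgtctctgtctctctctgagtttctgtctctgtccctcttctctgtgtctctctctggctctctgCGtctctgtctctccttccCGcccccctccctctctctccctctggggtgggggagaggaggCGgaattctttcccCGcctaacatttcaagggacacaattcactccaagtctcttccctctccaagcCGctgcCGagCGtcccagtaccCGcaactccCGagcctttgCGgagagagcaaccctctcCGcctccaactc
Igf2bp3: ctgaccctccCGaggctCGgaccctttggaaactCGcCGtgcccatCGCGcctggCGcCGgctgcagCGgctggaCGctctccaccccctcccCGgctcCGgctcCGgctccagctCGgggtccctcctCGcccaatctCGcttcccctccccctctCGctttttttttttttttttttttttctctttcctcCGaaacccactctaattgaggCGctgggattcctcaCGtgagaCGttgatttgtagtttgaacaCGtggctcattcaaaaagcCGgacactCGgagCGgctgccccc
Lin28b: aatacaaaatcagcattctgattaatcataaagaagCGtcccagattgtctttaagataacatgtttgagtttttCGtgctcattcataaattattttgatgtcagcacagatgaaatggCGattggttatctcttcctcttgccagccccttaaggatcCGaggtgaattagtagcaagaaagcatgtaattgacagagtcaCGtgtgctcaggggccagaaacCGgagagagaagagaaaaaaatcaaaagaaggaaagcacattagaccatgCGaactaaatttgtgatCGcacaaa

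Igf2bp2 had 47 CG dinucleotides in these 300 bases and a GC content of 76.7%. Igf2bp3 had 25 CG at 60.3% GC, Hmga2 had 12 at 57.7% and Lin28b had 8 at 39.0%. The median over 32851 mouse promoters was 7 CG and 52.7% GC, so Lin28b was close to the usual CG number with a low GC content. Motifs were searched on both strands. GGGCGG, the core of the GC box, occurred 2 times in the Igf2bp2 promoter and 1 time in that of Hmga2, and 35.7% of all promoters held it. CCAAT occurred 1 time in Igf2bp3 and 1 time in Lin28b (37.4% of promoters), and the E-box CACGTG 2 times in Igf2bp3 and 1 time in Lin28b (7.15%). TATAAA (13.6%) and TGANTCA, the AP-1 site (7.81%), were in none of the 4 windows. These are matches of letters within the window and say nothing of binding.

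A library had between 11771 and 28934 peaks, with 2.24 to 11.5 M tags in them (a tag is 1 aligned read; M, 1e6). The shallowest H3K27ac library was Sen replicate 1, and the 3 Res_shFabp7 libraries had the longest H3K9ac peak lists. In H3K27ac Res_shFabp7 replicates 2 and 3 had the longest lists, and Sen replicate 2 (23348 peaks) came before Res_shFabp7 replicate 1 (23131). Fabp7 had no peak in any library in either mark, so the acetylation data do not check the knockdown. Of 11 markers of lung epithelium and adenocarcinoma, 7 (Krt8, Krt18, Krt7, Krt19, Cdh1, Muc1 and Sftpc) had peaks in all 12 libraries of each mark, and 3 (Nkx2-1, Sftpb and Napsa) had none. None of 6 immune markers had a peak. A library was 1 mixture of many cells, so fewer cells carrying a mark and less of it per cell cannot be told apart.

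**Figure D1:**
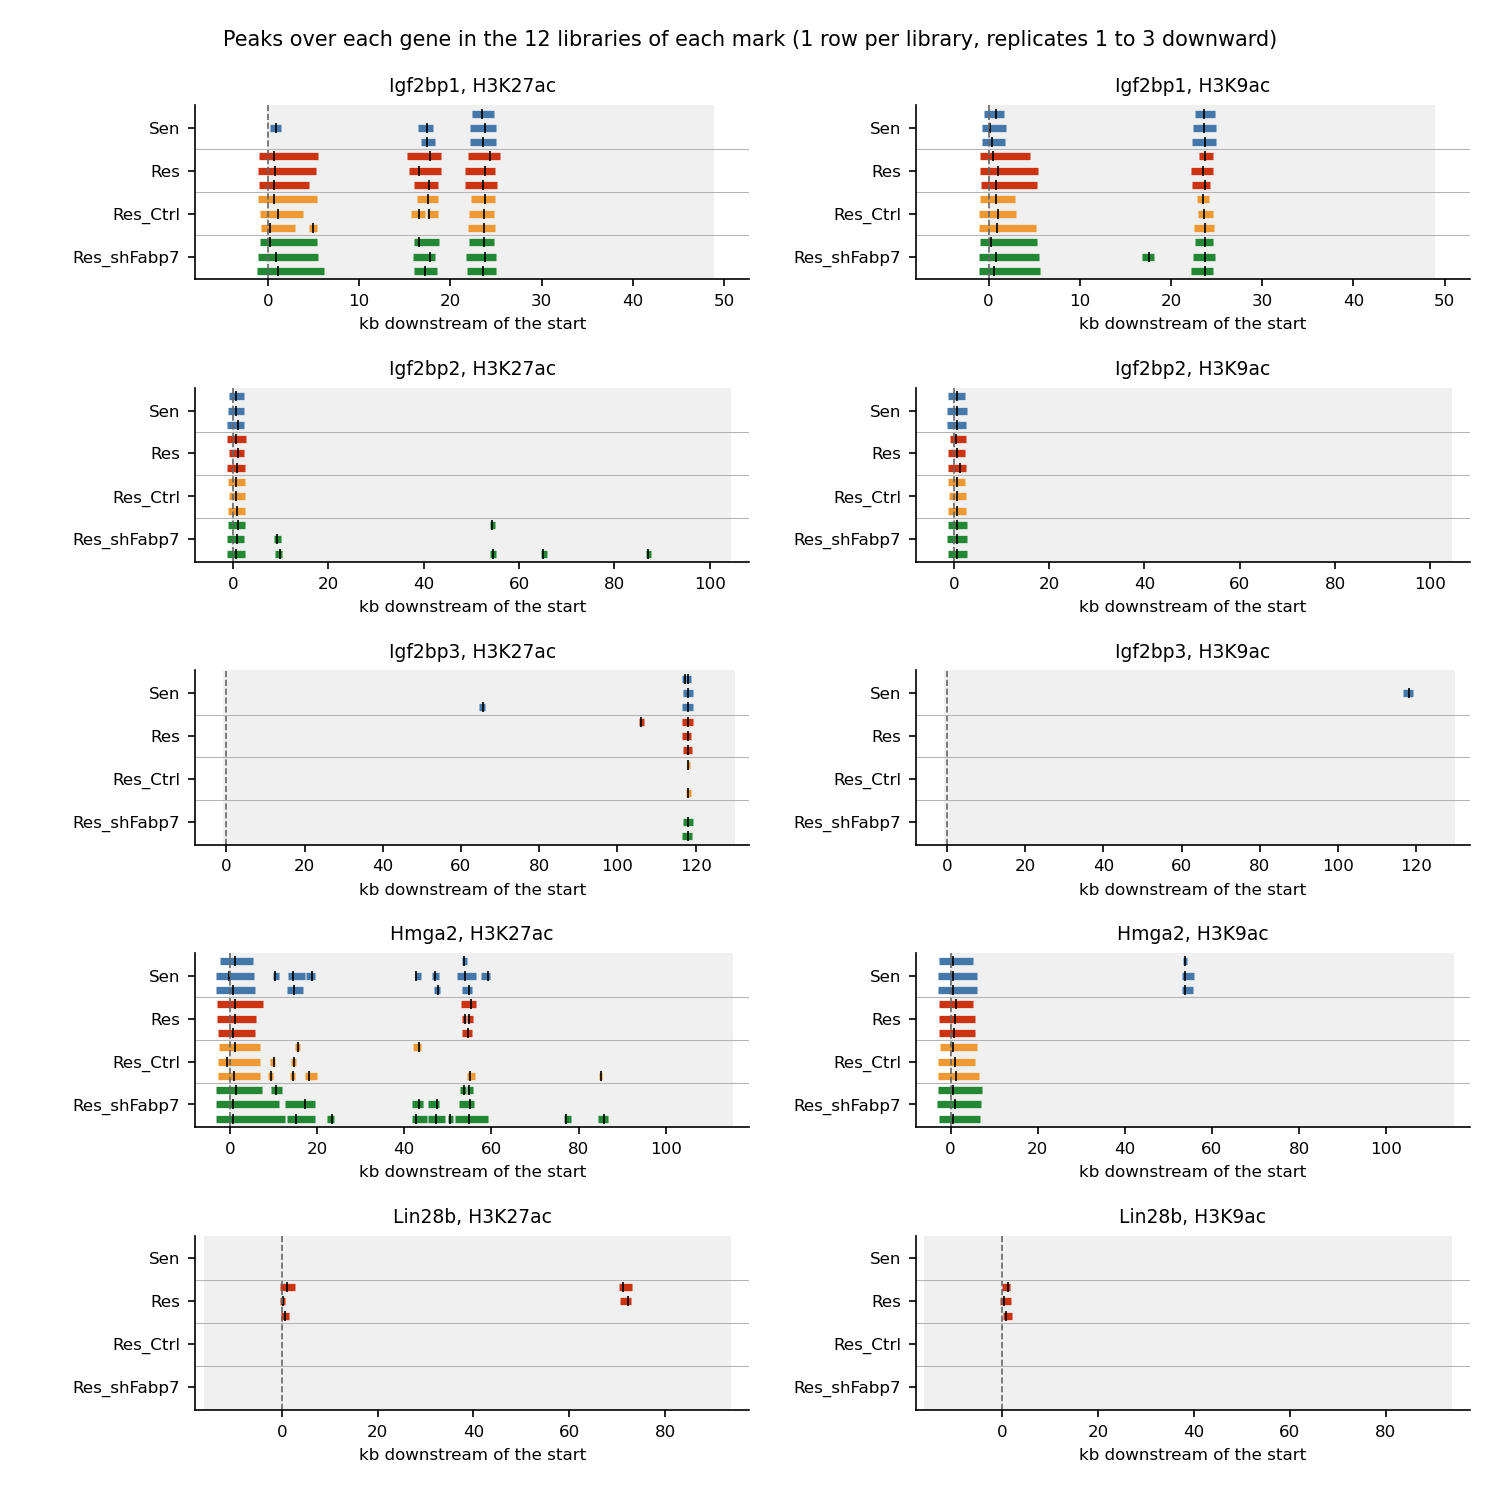
Called peaks around the 5 genes, with 1 row per library, H3K27ac and H3K9ac side by side. The x axis is the distance downstream of the gene's start in kb, bars are peaks, ticks are their summits, grey is the gene body and the dashed line is the start. Igf2bp2 and Hmga2 have a peak at the start in every library, Lin28b only in the 3 Res libraries of each mark, and Igf2bp3 in none.

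The plot of called peaks shows 4 different patterns among the 5 genes. Igf2bp2 and Hmga2 had a start peak in 12 of 12 libraries of both marks. Igf2bp1 had one in 12 of 12 H3K9ac libraries and 10 of 12 H3K27ac libraries, the 2 without it being Sen. Lin28b had one in the 3 Res libraries of each mark and in none of the other 9, and Igf2bp3 had none at its start. The median summit of the start peaks lay downstream of the annotated start, at 711 bases (H3K27ac) and 699.5 bases (H3K9ac) for Igf2bp2, 732 and 759.5 for Igf2bp1, 854 and 734 for Hmga2, and 588 and 660 for Lin28b. Igf2bp1 has no entry in the promoter table, and the higher end of its annotated body was taken as its start. The annotated start used for Lin28b, chr10:45470201, lies inside its annotated body, which runs on upstream to 45486314. No peak was called at that upper end in any library.

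Every one of the 8 H3K9ac regions overlapped an H3K27ac region, while the reverse was rarer away from starts. The share of H3K27ac regions with H3K9ac was 3 of 3 for Igf2bp1, 1 of 5 for Igf2bp2, 1 of 3 for Igf2bp3, 2 of 8 for Hmga2 and 1 of 2 for Lin28b. Of the 21 H3K27ac regions, 3 had a peak in all 12 libraries and 7 in a single library. Of the 8 H3K9ac regions the numbers were 4 and 2. Levels below are CPM: tags in the peaks of a region per 1e6 tags in regions called in all 12 libraries, TMM-scaled, with 3 libraries per group and no level where no peak was called. A level therefore sums tags over the called length, and the level per called kb is given beside it where that matters.

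At the start of Igf2bp1 (chr11:96000346-96007042 for H3K9ac) the mark was high in all resistant groups and low in the sensitive cells. H3K9ac was 41.7, 46.0 and 43.9 CPM in Sen, 335, 328 and 321 in Res, 223, 244 and 258 in Res_Ctrl, and 242, 240 and 245 in Res_shFabp7. Every library of the 3 resistant groups was above every Sen library, and Res was above Res_Ctrl without overlap. The group means were 43.9 ± 2.15, 328 ± 7.0, 242 ± 17.5 and 243 ± 2.45 CPM (SD, n = 3).

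Res exceeded Sen at this region by a log2 ratio of 2.88 ± 0.06 (SE of the edgeR fit), a 7.36-fold difference, and Res_Ctrl exceeded Sen by 2.45 ± 0.07, 5.47-fold. Both describe the values by which the gene was chosen, and the comparisons share libraries. Part of the difference was one of length: the peaks covered 2.42 ± 0.197 kb in Sen, 6.01 ± 0.477 kb in Res, 4.69 ± 1.37 kb in Res_Ctrl and 6.53 ± 0.246 kb in Res_shFabp7. Per called kb the levels were 18.2 ± 0.711, 54.8 ± 5.53, 53.6 ± 10.8 and 37.2 ± 1.4 CPM. A fit per called base, here and below, was scaled anew over all regions, so its ratio is relative to the usual change in tag density; for Res against Sen it gave 1.30. The surrounding 5 Mb had a median H3K9ac log2 ratio of 0.34 for Res against Sen, and with that taken out in the fit 2.53 remained.

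H3K27ac at the same start (chr11:95999820-96007107) gave the same order. In Sen only replicate 2 had a peak, with 69 tags and 15.4 CPM. Res had 215, 220 and 201 CPM, Res_Ctrl 180, 151 and 135, and Res_shFabp7 164, 153 and 149. The means of the 3 resistant groups were 212 ± 10.2, 155 ± 22.7 and 155 ± 7.66 CPM, and all 9 libraries were above the single Sen value. No ratio to Sen is given, since 2 of its libraries had no called peak and thus no deposited count.

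Res_Ctrl was below Res in both marks at the Igf2bp1 start, by -0.43 ± 0.12 in H3K27ac and -0.43 ± 0.06 in H3K9ac (log2), without overlap. The regions of the surrounding 5 Mb were lower in Res_Ctrl as well, with medians of -0.39 and -0.32. Relative to that window the Igf2bp1 ratios were -0.05 and -0.11. In the rescaled fit per called base the H3K9ac ratio was -0.02. The plain H3K9ac levels per called kb overlapped, at 53.6 ± 10.8 CPM in Res_Ctrl and 54.8 ± 5.53 in Res. Those of H3K27ac did not overlap, at 29.5 ± 2.20 CPM in Res_Ctrl and 35.0 ± 1.93 in Res.

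**Figure D2:**
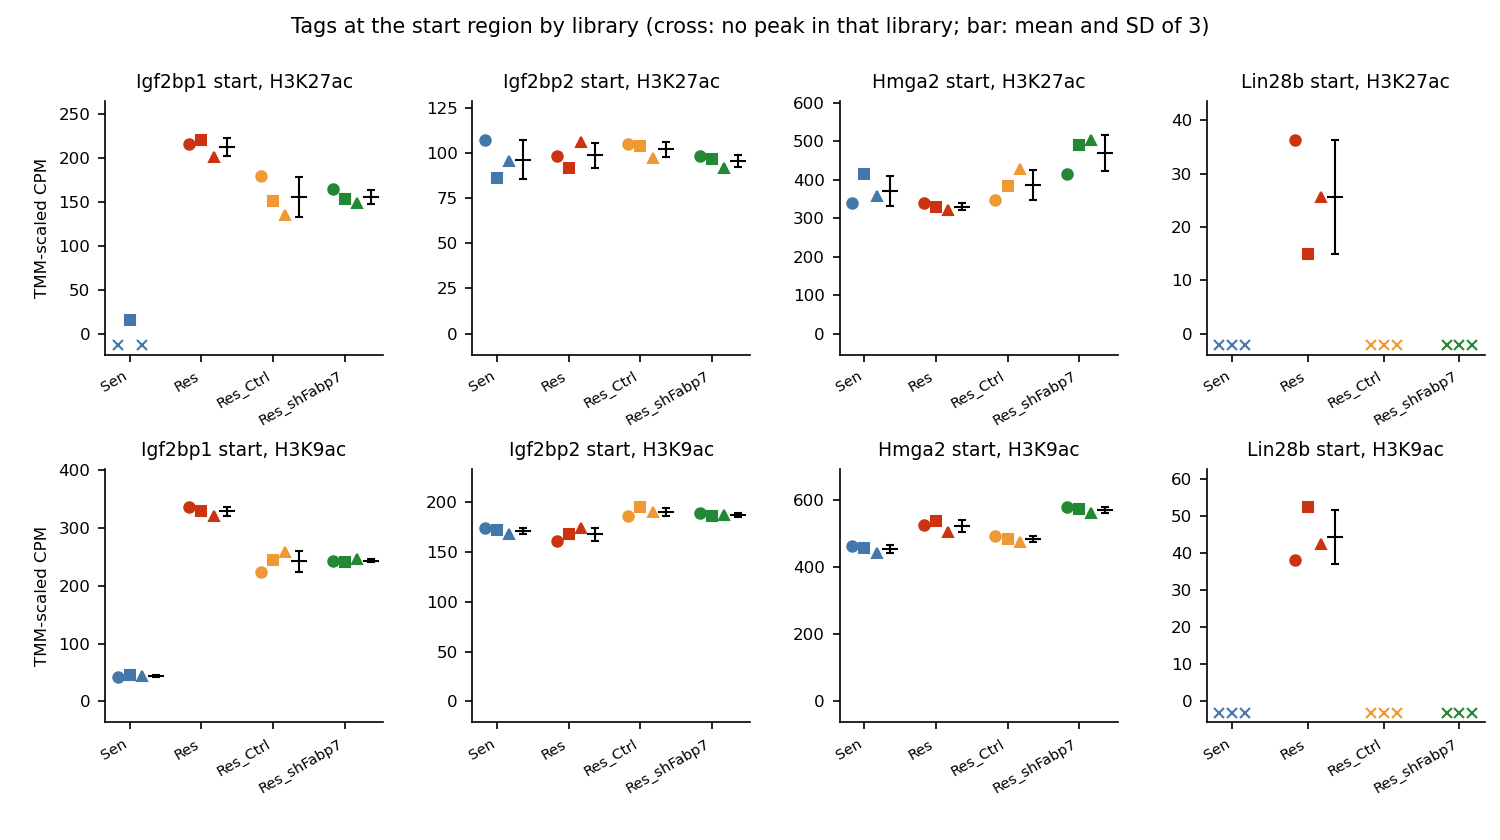
Acetylation at the starts of Igf2bp1, Igf2bp2, Hmga2 and Lin28b. The y axis is TMM-scaled CPM, each point is 1 library, a cross marks a library with no peak, and the bar and whisker are the mean and SD of 3 libraries. Igf2bp1 is low in Sen and high in the resistant groups, Igf2bp2 is nearly level, and the Hmga2 H3K9ac points of Res_shFabp7 (560 to 577 CPM) lie above those of every other group.

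The hairpin comparison did not pass the threshold at the Igf2bp1 start. The log2 ratio of Res_shFabp7 to Res_Ctrl was 0.02 ± 0.11 in H3K27ac (edgeR quasi-likelihood test, adjusted p = 0.96) and 0.01 ± 0.05 in H3K9ac (adjusted p = 0.97), and the groups overlapped. Leaving out 1 library turned both signs, so no direction can be read from them. The H3K9ac value turned when tags were taken per called base, to -0.27 with an adjusted p of 0.0084. In Res_Ctrl replicates 1, 2 and 3 the peak covered 3.77, 4.04 and 6.26 kb, against a mean of 6.53 kb in Res_shFabp7. The plot of level against called length shows the same: similar scaled levels, over a longer called stretch than in 2 of the 3 control libraries. Those were Res_Ctrl replicates 1 and 2, with 2.57 and 3.19 M H3K9ac tags in peaks, against 4.63 M in replicate 3. The Res_shFabp7 libraries had 4.84, 7.19 and 5.86 M. The part of depth in the called length was not tested.

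**Figure D3:**
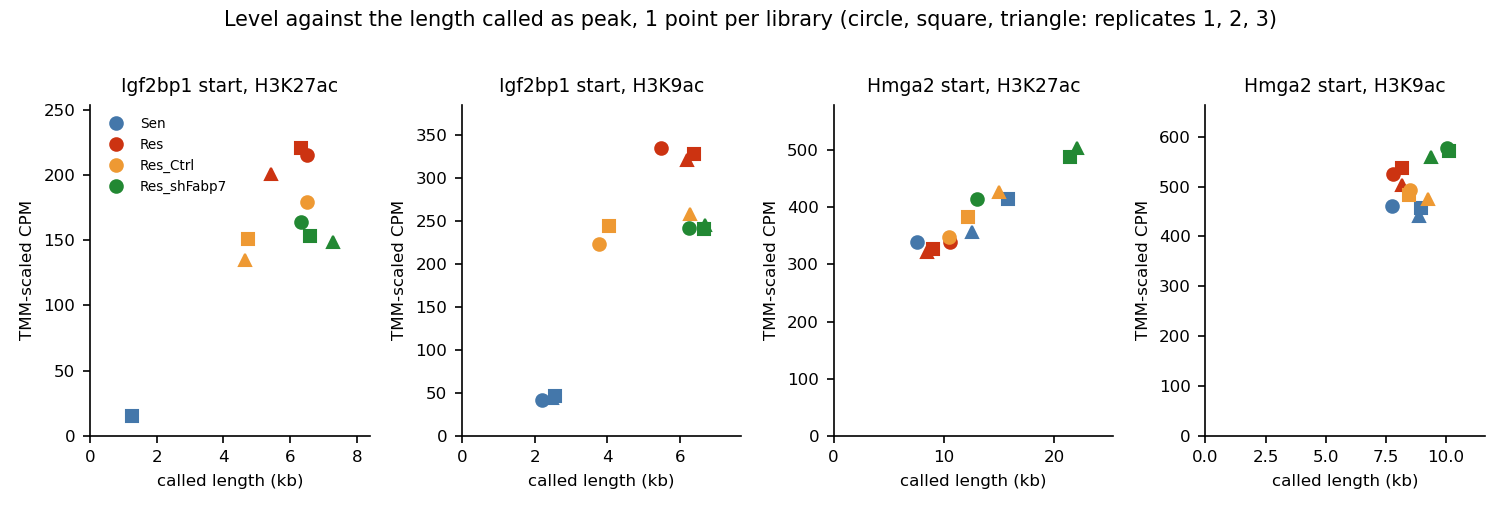
Level in CPM (y axis) against called length in kb (x axis) at the starts of Igf2bp1 and Hmga2, each point being 1 library, for both marks. At Igf2bp1 the Res_Ctrl and Res_shFabp7 H3K9ac points have similar heights, and 2 of 3 Res_Ctrl points have clearly shorter lengths. At Hmga2 the H3K27ac lengths spread most, up to means of 18.8 kb in Res_shFabp7.

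Inside Igf2bp1 there were 2 further H3K27ac regions, with smaller differences between the groups than the start. The region 17.1 kb downstream (chr11:95987003-95990671) had 21.0 and 21.3 CPM in Sen replicates 2 and 3 and no peak in replicate 1, and 58.5, 62.9 and 48.9 CPM in Res. Res_Ctrl had 34.7 and 50.6 CPM with no peak in replicate 3, and Res_shFabp7 had 35.1, 26.9 and 25.4. Res averaged 56.8 ± 7.16 CPM there and Res_shFabp7 29.1 ± 5.22, without overlap, and 1 Res_Ctrl library reached into the range of Res. H3K9ac at this place was called in 1 library, Res_shFabp7 replicate 2, with 64 tags.

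The region 23.5 kb downstream (chr11:95980504-95984358) was acetylated in every library, also in Sen. H3K27ac was 71.2, 70.0 and 73.5 CPM in Sen, 74.2, 93.5 and 92.1 in Res, 62.0, 76.2 and 69.2 in Res_Ctrl, and 49.9, 62.4 and 66.6 in Res_shFabp7. Res lay above Sen without overlap, at a log2 ratio of 0.25 ± 0.13, but the surrounding 5 Mb had a median of 0.38, and the ratio fitted within that window was -0.15. Res_Ctrl and Sen overlapped (-0.03 ± 0.13), as did Res_shFabp7 and Res_Ctrl (-0.19 ± 0.14, edgeR adjusted p = 0.49).

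H3K9ac of this internal region went the other way from the start. It was 55.5, 53.5 and 56.9 CPM in Sen, 30.6, 49.3 and 39.0 in Res, 30.5, 40.0 and 43.5 in Res_Ctrl, and 30.7, 37.4 and 38.5 in Res_shFabp7. All 9 libraries of resistant cells were below all 3 Sen libraries. The log2 ratio to Sen was -0.48 ± 0.14 for Res and -0.53 ± 0.12 for Res_Ctrl, and Res_shFabp7 differed from Res_Ctrl by -0.10 ± 0.15 (edgeR adjusted p = 0.72; 0.02 without Res_Ctrl replicate 3). Within its 5 Mb window, whose median was 0.34, the ratio of Res to Sen was -0.83. In the rescaled fit per called base that of Res_Ctrl to Sen was -0.25. The plain levels per called kb were 22.5 ± 1.77 CPM in Sen, 19.5 ± 0.804 in Res and 22.2 ± 2.62 in Res_Ctrl. Sen and Res_Ctrl overlapped on that scale. The called lengths were 2.47 ± 0.196 kb in Sen, 2.03 ± 0.395 kb in Res and 1.75 ± 0.477 kb in Res_Ctrl. Within one gene, H3K9ac was thus higher in Res than in Sen at the start and lower at the internal region.

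Igf2bp2, whose product is the family member best known outside the embryo, was close to level in all groups. H3K27ac at its start (chr16:22160642-22164637) was 108, 86.0 and 95.5 CPM in Sen, 98.2, 92.0 and 106 in Res, 105, 104 and 97.4 in Res_Ctrl, and 98.4, 96.8 and 91.7 in Res_shFabp7. All 4 groups overlapped, and the log2 ratios were 0.02 ± 0.12 for Res against Sen, 0.11 ± 0.13 for Res_Ctrl against Sen and 0.07 ± 0.10 for Res_Ctrl against Res. The hairpin comparison gave -0.08 ± 0.10 (edgeR adjusted p = 0.71), and 0.12 in the rescaled fit per called base. The plain levels per called kb were 26.5 ± 2.02 CPM in Res_shFabp7 and 29.5 ± 2.02 in Res_Ctrl.

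H3K9ac of the Igf2bp2 start was 174, 172 and 168 CPM in Sen, 161, 168 and 174 in Res, 187, 195 and 190 in Res_Ctrl, and 190, 186 and 187 in Res_shFabp7. The control and hairpin libraries lay above all Sen and Res libraries. The differences were small: 0.15 ± 0.05 for Res_Ctrl against Sen, 0.04 per called base, and 0.19 ± 0.06 for Res_Ctrl against Res. Res and Sen overlapped at -0.04 ± 0.06. The hairpin comparison gave -0.02 ± 0.05 (edgeR adjusted p = 0.85), and 0.08 in the rescaled fit per called base. The plain levels per called kb were 48.1 ± 1.91 CPM in Res_shFabp7 and 53.0 ± 1.98 in Res_Ctrl.

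Igf2bp2 had 4 more H3K27ac regions in its body, 9.46, 54.4, 65.2 and 87.1 kb downstream, and all were called in Res_shFabp7 libraries alone. They were thin, with a peak in 2, 2, 1 and 1 of the 3 libraries, and 58 to 94 tags. With all lists cut to the same number of peaks, none of the 4 was left in any library. Res_shFabp7 replicates 2 and 3 had the longest H3K27ac lists, and the part this plays was not tested beyond that count.

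Igf2bp3, whose promoter holds the second highest number of CG among the 4 printed, had no start peak in any of the 24 libraries. Its most often called region lay 118 kb downstream, near the far end of the gene (chr6:49095610-49098496), where the annotated body of Malsu1, a mitochondrial ribosome assembly factor, overlaps it. H3K27ac there was 49.4, 39.9 and 48.9 CPM in Sen and 44.1, 40.1 and 38.5 in Res, which overlapped (log2 ratio -0.18 ± 0.14). Res_Ctrl had 13.6 and 14.8 CPM in replicates 1 and 3 and Res_shFabp7 had 32.1 and 25.4 in replicates 2 and 3, with no peak in the remaining library of each. H3K9ac was called there in 1 Sen library, with 262 tags and 30.3 CPM. Single H3K27ac peaks of 1 Sen library (65.4 kb) and 1 Res library (106 kb) made up the rest.

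Lin28b was the gene whose start carried peaks in Res and in no other group. Its H3K27ac region (chr10:45467473-45470598) held 207, 61 and 99 tags in the 3 Res libraries, which is 36.4, 14.9 and 25.6 CPM, a mean of 25.6 ± 10.7. Its H3K9ac region (chr10:45468188-45470694) held 106, 170 and 147 tags, or 38.2, 52.4 and 42.5 CPM, a mean of 44.4 ± 7.26. The other 9 libraries of each mark had no peak there, Res_Ctrl and Res_shFabp7 included, though both were made from resistant cells. A further H3K27ac region 71.7 kb downstream was called in Res replicates 1 and 2 alone, at 34.4 and 37.9 CPM.

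Presence in all 3 Res libraries and none of the other 9 was found for 2.16% of H3K27ac regions and 0.750% of H3K9ac regions, and the genes were chosen with this pattern known. The Res libraries had 12684 to 13782 H3K9ac peaks, those of Sen 15615 to 16457 and those of Res_shFabp7 16529 to 18317, while Res_Ctrl had 11771, 13113 and 16217. In H3K27ac the Res libraries had 5.08 to 7.35 M tags in peaks, those of Sen 2.24 to 5.91 M and those of Res_Ctrl 3.70 to 4.65 M. Those of Res_shFabp7 had 5.10 to 10.5 M. The part of depth and list length in the missing peaks was not tested. At a stricter peak p of 1e-10 the region was kept in 2 of 3 Res libraries for H3K27ac and 3 of 3 for H3K9ac. The peaks were weak, and where no peak was called a tag number below the caller's limit is possible.

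The summed levels of the fibroblast markers and, in H3K9ac, of the epithelial markers differed in the Res group as well. The summed H3K9ac level of the 11 epithelial markers was 1247 to 1369 CPM for Res, below 1838 to 1853 for Sen, 1839 to 1981 for Res_Ctrl and 1590 to 1775 for Res_shFabp7. Krt7 (78.7 CPM in Res against 212 in Sen), Krt8, Krt18, Muc1 and Sftpc were lower in Res, and Cdh1 was nearly level (423 against 434). Krt19 was higher in Res (109 against 89.7), and Epcam had peaks in 2 Res and 0 Sen libraries. Cdh1 in H3K27ac was 1147 CPM in Res against 819 in Sen. In H3K27ac the sums were 2356 to 2539 for Res and 2585 to 2792 for Sen, with Res_Ctrl at 1896 to 3055 and Res_shFabp7 at 2330 to 2549. Of 5 fibroblast markers in H3K27ac, 3 had any peak: Col1a1 in 11 libraries, Col1a2 in the 3 Res libraries alone and Dcn in 1 Res library, while Pdgfra and Pdgfrb had none. The summed H3K27ac level of the fibroblast list was 0 to 36.9 CPM for Sen, 107 to 119 for Res, 22.2 to 33.3 for Res_Ctrl and 29.8 to 31.3 for Res_shFabp7. In H3K9ac only Col1a1 had peaks, and the sums were 0 to 31.7, 54.4 to 67.4, 0 to 32.5 and 22.0 to 29.4 CPM. The part of these differences in the Lin28b and Igf2bp1 levels was not tested. Of 4 endothelial markers only Cdh5 had peaks, with summed H3K27ac of 0 to 114, 38.5 to 42.3, 292 to 325 and 246 to 286 CPM in the same order of groups, and its part in the differences between Res_Ctrl and Res was not tested either.

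The microRNAs that LIN28B acts on were looked at next. All 9 mature let-7 family members in the RefSeq table share the seed GAGGUAG (bases 2 to 8, in capitals), and 2 of their 12 genes had peaks in all 24 libraries, Mirlet7e and Mirlet7i.
let-7e-5p: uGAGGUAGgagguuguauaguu
let-7i-5p: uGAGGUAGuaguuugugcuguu
These are the members with peaks in every library, and the bases outside the seed are what tells them apart.

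Acetylation at both let-7 loci was higher in Res than in Sen, as it was at Lin28b. At Mirlet7e (chr17:17822775-17831856, a region it shares with Mir125a, Mir99b and the protein-coding gene Spaca6) H3K27ac was 153, 211 and 203 CPM in Sen, 266, 307 and 310 in Res, 184, 215 and 214 in Res_Ctrl, and 197, 192 and 210 in Res_shFabp7. The 3 Res libraries stood above all others. Res exceeded Sen by 0.61 ± 0.13 in H3K27ac (edgeR adjusted p = 0.008) and 0.53 ± 0.05 in H3K9ac (edgeR adjusted p = 9.9e-06).

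At Mirlet7i (chr10:122982237-122988945) H3K27ac averaged 129 ± 13.1 CPM for Sen, 167 ± 4.5 for Res, 124 ± 20.3 for Res_Ctrl and 149 ± 7.56 for Res_shFabp7. Res exceeded Sen by 0.36 ± 0.11 in H3K27ac (edgeR adjusted p = 0.031) and by 0.21 ± 0.06 in H3K9ac (edgeR adjusted p = 0.0096). Res_Ctrl was below Res at both loci, by -0.51 ± 0.10 and -0.41 ± 0.12 in H3K27ac and -0.29 ± 0.06 and -0.28 ± 0.07 in H3K9ac, with edgeR adjusted p of 0.0023, 0.023, 0.0016 and 0.0087. The hairpin comparison passed the edgeR threshold at neither locus in either mark, beside 3.83% of all H3K27ac and 7.85% of all H3K9ac regions. At an unadjusted p under 0.05 there was 1 of the 2 in each mark, and DESeq2 called 0 in H3K27ac and 1 in H3K9ac. For Mirlet7i the hairpin comparison gave 0.28 ± 0.12 in H3K27ac (edgeR adjusted p = 0.24) and 0.21 ± 0.07 in H3K9ac (edgeR adjusted p = 0.089). Of the other 10 let-7 genes, only Mirlet7c-2 had a peak, in 1 Sen and 1 Res_shFabp7 library of H3K27ac.

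Hmga2 carried the broadest acetylation of the 5 genes, and of the regions tested, its start was the only one at which the hairpin comparison passed the edgeR threshold, in H3K9ac. H3K9ac at its start (chr10:120469339-120479627, over the first part of the gene and the bases before it) was 462, 458 and 441 CPM in Sen, 526, 537 and 503 in Res, 493, 483 and 475 in Res_Ctrl, and 577, 572 and 560 in Res_shFabp7. The 4 groups did not overlap. In order their means were 454 ± 10.9 for Sen, 484 ± 9.38 for Res_Ctrl, 522 ± 17.4 for Res and 570 ± 8.71 for Res_shFabp7.

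Res_shFabp7 exceeded Res_Ctrl by 0.25 ± 0.04 on the log2 scale, 1.19-fold, in 3 of 3 libraries (edgeR adjusted p = 0.0022). DESeq2 gave an adjusted p of 8.8e-07, and leaving out each library in turn gave log2 ratios of 0.23 to 0.26 with edgeR adjusted p of 0.0016 to 0.019. The peak was also longer, 9.84 ± 0.409 kb against 8.75 ± 0.432 kb, and per called kb the levels were 58.0 ± 1.65 and 55.4 ± 3.55 CPM. On that scale the groups overlapped, at 56.6 to 59.8 CPM in Res_shFabp7 and 51.4 to 57.9 in Res_Ctrl. The fit per called base, scaled anew over all regions, gave 0.29. Tags in H3K9ac peaks were 4.84 to 7.19 M in Res_shFabp7 and 2.57 to 4.63 M in Res_Ctrl. The part of depth in the called length was not tested. The median of the surrounding 5 Mb was 0.06, and fitted within that window the ratio was 0.18 (edgeR adjusted p = 0.016). The difference in summed level is small in size and larger than the spread between the 3 cultures.

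Between the other groups the Hmga2 H3K9ac differences were small too. Res exceeded Sen by 0.19 ± 0.05 and Res_Ctrl exceeded Sen by 0.09 ± 0.05, and Res_Ctrl was below Res by -0.11 ± 0.05. In the fit per called base, scaled anew over all regions, these were 0.01, -0.17 and -0.19. The plain levels per called kb were 53.5 ± 5.31 CPM in Sen, 64.9 ± 2.97 in Res and 55.4 ± 3.55 in Res_Ctrl. The order of Sen and Res_Ctrl thus turned in the rescaled fit and not in the means per called kb. Per called kb, the only scale on which the genes can be set side by side, Hmga2 had 49.8 to 59.6 CPM in Sen, Igf2bp2 40.6 to 48.0 and Igf2bp1 a mean of 18.2 ± 0.711, without overlap between the 3 genes. In Res the order was Hmga2 (61.6 to 67.4), Igf2bp1 (51.5 to 61.2), Igf2bp2 (46.4 to 47.7) and Lin28b (20.9 to 23.3), again without overlap, with Hmga2 and Igf2bp1 almost touching.

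H3K27ac at the Hmga2 start was merged into a region of 23.3 kb (chr10:120456387-120479680), which also overlaps the long non-coding RNA gene Gm51785. A library had 1 to 4 peaks in it. The levels were 340, 415 and 357 CPM in Sen, 339, 328 and 321 in Res, 348, 383 and 426 in Res_Ctrl, and 415, 489 and 504 in Res_shFabp7. The highest Res_Ctrl library lay above the lowest Res_shFabp7 library, so these groups overlapped, while all Res libraries were below all of Sen by a narrow margin.

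The H3K27ac log2 ratio of Res_shFabp7 to Res_Ctrl was 0.30 ± 0.09 with an edgeR adjusted p of 0.10, and the unadjusted p was 0.0076. With the replicate number as a block the adjusted p was 0.012, and DESeq2 gave 0.032, both past 0.05. The called length was 18.8 ± 5.04 kb in Res_shFabp7 and 12.5 ± 2.29 kb in Res_Ctrl, and in the rescaled fit per called base the ratio was 0.00 (edgeR adjusted p = 1). The plain levels per called kb were lower in Res_shFabp7, 25.9 ± 5.22 CPM against 31.0 ± 2.42 in Res_Ctrl, with overlap. Res against Sen was -0.19 ± 0.09 and Res_Ctrl against Res was 0.25 ± 0.09. Per called base these turned to 0.25 and -0.23.

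Inside Hmga2, H3K27ac was scattered over 7 more regions. The region 55.7 kb downstream had 26.1, 89.2 and 38.1 CPM in Sen, 52.9, 36.7 and 33.4 in Res and 31.2, 40.8 and 79.2 in Res_shFabp7. In Res_Ctrl it was called in replicate 3 alone, at 26.5 CPM. Res and Sen overlapped (-0.36 ± 0.39), and leaving out 1 library moved that ratio between -0.65 and 0.32, so no direction can be read from it. The region 43.5 kb downstream was called in 1 Sen, 1 Res_Ctrl and 2 Res_shFabp7 libraries, that at 47.4 kb in 2 Sen and 2 Res_shFabp7 libraries, and that at 85.6 kb in 1 Res_Ctrl and 1 Res_shFabp7 library. Those at 23.1, 50.6 and 77.5 kb were called in Res_shFabp7 replicate 3 alone, the deepest H3K27ac library.

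H3K9ac inside Hmga2 was called at 1 place, 54.5 kb downstream (chr10:120420532-120423351), in the 3 Sen libraries and in none of the other 9. The peaks held 40, 256 and 252 tags, 10.8, 29.6 and 25.6 CPM, a mean of 22.0 ± 9.90. This pattern, the reverse of Lin28b, occurred in 0.993% of H3K9ac regions. It was kept in 1 library at a peak p of 1e-10 and in none with lists of equal length. Sen replicates 2 and 3 had the most H3K9ac tags in peaks of all 12 libraries, 10.2 and 11.5 M.

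**Figure D4:**
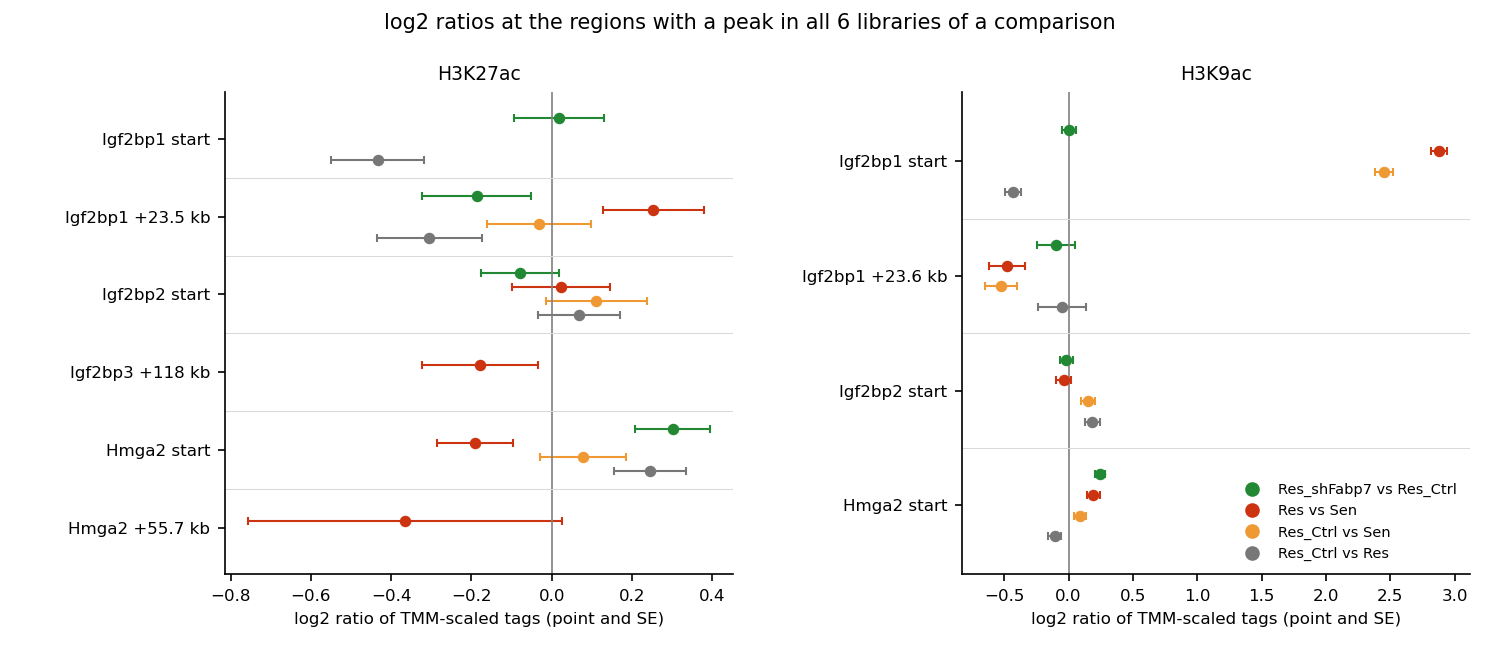
Log2 ratio of the first group to the second (x axis) with the SE of the fit as whiskers, for each region of the 5 genes with a peak in all 6 libraries, in 4 comparisons and both marks. The Igf2bp1 start in H3K9ac stands far to the right in Res against Sen (2.88) and Res_Ctrl against Sen (2.45), and most other points lie within 0.5 of 0.

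Counted over the genes, the hairpin comparison called few regions. In H3K27ac, 4 regions could be tested and 0 passed an edgeR adjusted p of 0.05, against 3.83% of all 16069 regions (1.44% higher and 2.39% lower). With the replicate number as a block, 1 of 4 passed, the higher Hmga2 start (adjusted p = 0.012), beside 519 higher and 822 lower regions in all, against 231 and 384 without the block. At an unadjusted p under 0.05 without the block there was 1, the Hmga2 start, and DESeq2 called the same 1. In H3K9ac, 1 of 4 regions passed, the higher Hmga2 start, against 7.85% of 11115 regions, 2.77% called higher and 5.08% lower. The median log2 ratio of the tested regions was -0.03 in H3K27ac and -0.01 in H3K9ac, against 0.01 over all regions in both marks.

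Presence changed from 0 of 3 to 3 of 3 libraries, or the reverse, at 3 regions, the starts of Lin28b in both marks and the inner Hmga2 region of H3K9ac. The hairpin comparison gained and lost none in H3K27ac (3.95% and 0.0985% of all regions called in either group) and none in H3K9ac (4.86% and 0.0262%). Res against Sen gained 1 and lost 0 in H3K27ac (5.98% and 3.35%), and gained 1 and lost 1 in H3K9ac (2.24% and 11.9%). Res_Ctrl against Sen gained and lost none in H3K27ac (2.24% and 0.943%), and lost 1 in H3K9ac (0.531% gained, 4.96% lost). Res_Ctrl against Res lost 1 in each mark, where 5.56% and 2.49% of regions were gained and 5.24% and 2.01% lost.

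The groups did not overlap at 0 of 4 H3K27ac regions of the genes (10.4% of all regions were without overlap and higher in Res_shFabp7, 14.5% lower) and at 1 of 4 H3K9ac regions, higher (13.0%, and 16.1% lower). For Res against Sen, 1 of 5 H3K27ac regions was higher and 1 lower without overlap (25.5% and 21.6% of all regions), and of 4 H3K9ac regions 2 were higher and 1 lower (32.1% and 29.4%). For Res_Ctrl against Sen it was 0 of 3 either way in H3K27ac (17.1% and 19.5%), and 3 higher and 1 lower of 4 in H3K9ac (24.6% and 21.6%). For Res_Ctrl against Res, 1 of 4 was higher and 1 lower in H3K27ac (21.7% and 28.2%), and 1 higher and 2 lower in H3K9ac (25.9% and 27.2%). The last 3 comparisons share libraries and include the groups by which the genes were chosen, so nothing is read from these counts.

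Over the whole gene body with its margin, tags, peaks and called length in Res_shFabp7 and Res_Ctrl were compared in 21 two-sided exact permutation tests, whose smallest possible p with 3 libraries against 3 is 0.1. The Hmga2 H3K27ac level was 573 ± 125 against 407 ± 51.9 CPM (exact p = 0.2, Benjamini-Hochberg adjusted 0.42), over 29.7 ± 14.0 against 14.0 ± 3.15 kb of called peaks. The Igf2bp2 H3K27ac level was 118 ± 10.5 against 102 ± 4.22 CPM without overlap (exact p = 0.1, adjusted 0.3). That excess lay in the inner regions called in Res_shFabp7 libraries alone, so nothing is read from it. At the start, the only Igf2bp2 region called in Res_Ctrl, the means were 95.6 ± 3.51 CPM in Res_shFabp7 and 102 ± 4.22 in Res_Ctrl. The Igf2bp1 H3K27ac length was 12.4 ± 0.611 against 9.72 ± 1.98 kb (exact p = 0.1, adjusted 0.3). Lin28b in both marks and Igf2bp3 in H3K9ac had no peak in either group and gave no test.

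Which other genes had the H3K9ac pattern of the Igf2bp1 start was asked by Pearson correlation of log2 CPM over the 12 libraries, among 8259 gene regions called in all 12. The 5 highest were Pih1d2 (r = 0.994), Letm2 (0.988), Zfp882 (0.985), the endoderm and pancreas factor Pdx1 (0.981) and Jun (0.98), a subunit of the transcription factor AP-1. These are descriptions over 12 libraries in 4 groups that differ in depth. None came near the size of the Igf2bp1 difference: Jun averaged 55.6 CPM in Sen and 182, 193 and 160 in Res, Res_Ctrl and Res_shFabp7, and Pih1d2 57.2 and 97.6, 92.3 and 92.2. In H3K27ac, 193 regions had peaks in the same 10 libraries as the Igf2bp1 start. Those of genes with the most tags were at Nbl1, Adcy7, Jun, Ltbp2 and Col8a1.

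The pathways around the 5 genes were described from lists. Of 14 genes that act with LIN28 or process let-7, 12 could be tested in the hairpin comparison. None passed in H3K27ac (0 at an unadjusted p under 0.05, 0 by DESeq2), with a median log2 ratio of 0.06 against 0.04 over all tested genes, of which 0.846% were higher and 1.02% lower. In H3K9ac 1 rose, Tarbp2, a partner of Dicer, by 0.26 ± 0.06 (edgeR adjusted p = 0.015, in a region shared with Map3k12), against 2.19% of genes higher and 3.55% lower. For Res against Sen, Drosha, which cuts the let-7 primary transcripts, fell by 0.40 ± 0.12 in H3K27ac (edgeR adjusted p = 0.033), 1 of 12, and in H3K9ac 2 rose and 1 fell. Over all genes 14.7% were higher and 10.8% lower in H3K27ac, and 27.8% and 25.4% in H3K9ac. The medians were -0.08 and 0.01, against -0.03 and -0.01 over all genes. Khsrp, a let-7 maturation factor, was among the risers (0.30 ± 0.06, edgeR adjusted p = 0.0012). Lin28a, the close relative of Lin28b, had no peak in any library.

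Of 28 let-7 targets, 23 were tested in the hairpin comparison. None passed in H3K27ac (2 at an unadjusted p under 0.05, 0 by DESeq2), with a median of 0.03, and in H3K9ac 0 rose and 1 fell, with a median of -0.02. Over all genes tested there, 0.846% were higher and 1.02% lower in H3K27ac, and 2.19% and 3.55% in H3K9ac. For Res against Sen the targets went both ways: 4 rose and 5 fell of 23 in H3K27ac, and 9 rose and 9 fell of 24 in H3K9ac, beside the shares over all genes given for the LIN28 list. The median ratio of the targets was 0.01 in both marks. The matrix protein gene Thbs1 rose in both marks (1.54 ± 0.16 in H3K27ac, edgeR adjusted p = 0.00026). The cyclin gene Ccnd2 rose in H3K9ac by 1.84 ± 0.12 (edgeR adjusted p = 4.1e-07), from 40.5 ± 10.2 to 153 ± 6.53 CPM. Cdk6, a kinase of the G1 phase, fell by 0.90 ± 0.08 in H3K27ac (edgeR adjusted p = 0.00016). In Res_Ctrl the H3K9ac of Ccnd2 was 35.2 ± 10.0 CPM, a log2 ratio to Res of -2.11 ± 0.14 (edgeR adjusted p = 7.9e-07). Cdk6 was below Sen in Res_Ctrl too (-0.69 ± 0.10 in H3K27ac, edgeR adjusted p = 0.0028).

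Among 22 genes of the m6A machinery and partners of the IGF2BP proteins, all were tested and none passed in the hairpin comparison in either mark, with medians of 0.10 and 0.00. At an unadjusted p under 0.05 there were 2 in H3K27ac and 5 in H3K9ac, and DESeq2 called 0 in both. Over all genes in that comparison edgeR called 0.846% higher and 1.02% lower in H3K27ac, and 2.19% and 3.55% in H3K9ac. For Res against Sen 4 rose and 5 fell in H3K27ac, and 6 rose and 7 fell in H3K9ac, with medians of -0.14 and -0.04, beside shares over all genes of 14.7% higher and 10.8% lower in H3K27ac and 27.8% and 25.4% in H3K9ac. The risers included Elavl1, which encodes the RNA stabiliser HuR (0.90 ± 0.13 in H3K27ac, edgeR adjusted p = 0.0013, in a region shared with Ccl25), and Virma, a subunit of the m6A writer (0.85 ± 0.17, edgeR adjusted p = 0.0056). Virma H3K27ac was 34.4 ± 3.73 CPM in Res_Ctrl, against 32.4 ± 6.56 in Sen and 60.2 ± 4.72 in Res. Elavl1 was higher in Res_Ctrl than in Sen as well (0.66 ± 0.16 in H3K27ac, edgeR adjusted p = 0.02).

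Of 16 other oncofetal and imprinted growth genes only 4 could be tested. Igf2, the target that gave the family its name, and its neighbour H19 had no peak in any library, like Dlk1, Gpc3, Peg3, Peg10, Mest, Plagl1, Sall4 and Meg3. In the hairpin comparison 0.846% of all genes were higher and 1.02% lower in H3K27ac, and 2.19% and 3.55% in H3K9ac. Of these 4 genes, 0 passed there in H3K27ac (0 at an unadjusted p under 0.05, 0 by DESeq2). In H3K9ac 2 fell, Sox9 by 0.55 ± 0.14 (edgeR adjusted p = 0.029) and Plag1 by 0.25 ± 0.06 (edgeR adjusted p = 0.024, in a region shared with Chchd7). Both rose in Res against Sen in both marks, Sox9 by 2.03 ± 0.33 and Plag1 by 1.00 ± 0.12 in H3K27ac (edgeR adjusted p = 0.0023 and 0.00051). Sox9, a factor of embryonic lung, went from 40.8 ± 22.3 to 176 ± 24.5 CPM. Res_Ctrl was already below Res at Sox9, at log2 ratios of -1.48 ± 0.18 in H3K27ac and -0.97 ± 0.11 in H3K9ac (edgeR adjusted p = 0.00016 and 2.7e-05). Its H3K27ac level there was 62.0 ± 16.8 CPM. At Plag1 the H3K27ac level of Res_Ctrl, 78.5 ± 8.02 CPM, lay between 50.6 ± 4.02 in Sen and 102 ± 7.77 in Res. In H3K9ac 1 of the 4 fell in Res against Sen, where 25.4% of all genes did. The median of the 4 was 0.58 in H3K27ac and 0.51 in H3K9ac for Res against Sen and -0.05 and -0.16 for the hairpin comparison.

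The margin of 1 kb decided little. With no margin the numbers of regions were the same, and with 5 kb they were 23 in H3K27ac and 9 in H3K9ac. The added ones were near Igf2bp1: 4.04 kb upstream (chr11:96009987-96011866) H3K27ac was called in 1 Res_Ctrl and 3 Res_shFabp7 libraries, the latter at a mean of 20.0 CPM, and H3K9ac in 1 Res_shFabp7 library, and 2.89 kb past the other end H3K27ac was called in 2 Res_shFabp7 libraries. The next region upstream of Hmga2 lay 75.2 kb away (chr10:120551688-120553598) and had peaks in the 3 Res_shFabp7 libraries and none of the other 9 in both marks, at means of 14.6 and 21.6 CPM. That pattern was found for 1.25% of H3K27ac regions and 1.32% of H3K9ac regions.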

How the data were processed

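Peak lists of 24 immunoprecipitated libraries were used, and 4 input libraries were not used here. Bowtie 1.1.2, MACS 1.4.2 and the build mm10 are named in the submitters' processing notes, without roles. The authors deposited 1 list per library with a whole-number tag count, a fold ratio over background and a score of -10 times log10 of the p-value for each peak. The lowest deposited score was 50.0, a p of 1e-05. The caller's control and its treatment of duplicates are not given in the sources used here. No 2 lists of a group shared an identical peak.

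Peaks overlapping by 1 base were merged over the 12 lists of a mark, and tag counts were summed per region. Regions called in all 6 libraries of a comparison were tested with edgeR 4.0.16 (R 4.3.3; quasi-likelihood, TMM, Benjamini-Hochberg at 0.05 over all regions), and levels were computed in Python 3.11.15. In H3K27ac, same-numbered Res_shFabp7 and Res_Ctrl libraries deviated together (correlations 0.3567, 0.1257 and 0.2336). Res_shFabp7 replicate 2 deviated with Res_Ctrl replicate 3 as well (0.1561), so the correlations do not settle whether the numbers are pairs. The main fits had no replicate block, and blocked values are printed beside them where they change a call. The genes, lists and tests were chosen with earlier results of these data known. All regions of the 5 genes are named, and per list up to 4 genes past the threshold with the largest ratios; 1 gene of a list is not reported here. Alternatives were DESeq2 1.42.0, total tags for scaling, a minimum of 100 tags, stricter peaks, lists of equal length, tags per called base, 5 Mb windows, merging over 6 lists, the replicate block, other margins and leaving out each library.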

Additional observations from a re-analysis of the deposited data

How the results depend on the processing

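Of the log2 ratios of the 5 genes in Res_shFabp7 against Res_Ctrl, 97 recomputed values kept direction and side of the threshold, 4 passed it (all at the Hmga2 start in H3K27ac: DESeq2, total tags, stricter peaks and the replicate block) and 10 reversed, of which only the Igf2bp1 start in H3K9ac per called base (-0.27) was past the threshold. In the rescaled fit per called base the Igf2bp1 start in H3K27ac (-0.072) and the Igf2bp2 start in H3K27ac (0.12) and H3K9ac (0.078) reversed too. The plain levels per called kb at the Igf2bp2 start did not reverse, being lower in Res_shFabp7 than in Res_Ctrl in both marks. Without 1 library the Igf2bp1 start ran from -0.089 to 0.14 in H3K27ac and from -0.044 to 0.059 in H3K9ac, and its region at 23.5 kb from -0.22 to 0.017 in H3K9ac. In the other comparisons 301 stayed within their spread and 30 moved.

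Region counts moved more. In H3K27ac, Res_shFabp7 against Res_Ctrl had 231 regions higher and 384 lower, 385 higher with DESeq2, 387 and 888 per called base, 519 and 822 with the replicate block, and 140 and 204 with 5 Mb windows. Leaving out 1 library gave 43 to 283 higher and 112 to 541 lower. In H3K9ac the 308 higher and 565 lower regions became 176 and 336 with 5 Mb windows, and 86 to 499 and 207 to 596 without 1 library. In H3K27ac, the counts moved by over 1.5 times without Res_shFabp7 replicate 1 (151 higher, 168 lower), 2 (48, 121) or 3 (43, 112), without Res_Ctrl replicate 2 (94, 116) and, for lower regions, 3 (181). In H3K9ac they did so without Res_shFabp7 replicate 1 (96, 254), 2 (86, 291) or 3 (95, 207), without Res_Ctrl replicate 2 (153, 333) and, for higher regions, 3 (499).

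With 5 Mb windows, regions higher in Res than in Sen went from 1979 to 1077 in H3K27ac and from 3133 to 1895 in H3K9ac. Regions higher in Res_Ctrl than in Sen went from 1182 to 487 and from 2049 to 1296, and those lower from 965 to 379 and from 1636 to 860. Regions lower in Res_Ctrl than in Res went from 2778 to 1482 and from 2263 to 1228. Without 1 library, H3K27ac gave 1245 to 2286 higher and 1126 to 2257 lower for Res against Sen, and 586 to 1470 higher and 514 to 1235 lower for Res_Ctrl against Sen, with moves of over 1.5 times without Res replicate 2 or replicate 2 or 3 of Sen, and without replicate 2 or 3 of Res_Ctrl or Sen. The window fit takes the local median out by construction, and the cause of the other moves was not tested.

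In H3K9ac, same-numbered Res_shFabp7 and Res_Ctrl libraries did not deviate together (correlations 0.0272, 0.022 and -0.0528). The replicate block changed no call of the 5 genes other than the Hmga2 start in H3K27ac. Weak peaks set the limit: a region without a peak has no deposited count, and calls near the limit of 1e-05 come and go with list length.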
